A study of Mus musculus with 24 samples.

Results

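Broad H3K4me3 domains that mouse fibroblasts of 3 origins had in common were examined. A domain was a region wider than 4000 bp in the wild-type (WT) list of mouse embryonic fibroblasts (MEF) that overlapped, by at least 1 bp, a region wider than 4000 bp in the WT lists of both cancer-associated fibroblasts of mammary tumours (MMTV-CAF, CAF below) and wound-healing fibroblasts (wound below). This rule found 655 common domains among 987 MEF WT regions over 4000 bp, or 66.4% of them, and among 16089 MEF WT regions of any width. The domains were thus selected on their WT widths, and WT widths are given below as a description only.

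The series held 24 ChIP-seq samples, of which 17 had a peak list: 7 of H3K4me3, 7 of H3K27ac and 3 of the transcription factor Prrx1. MEF came from C57BL/6 embryos by their strain label, taken at E10 to E13. MMTV-CAF came from breast tumours of MMTV-PyMT mice (FVB/NJ), and wound-healing fibroblasts from dorsal wounds of C57BL/6 mice at day 10. All cells, WT included, had been immortalised with HPV E6/E7 and grown in DMEM with 10% FBS, so each group is an immortalised culture rather than the tissue. SG cells carried a CRISPR/Cas9 guide against Prrx1, with the non-targeting guide SgNS as the WT control. KI is a further MEF genotype that the labels do not spell out. It was read as the Prrx1 mutant mouse (129S-Prrx1tm1Jfm/Mmmh) of the protocol, in which the study describes an insertion in Prrx1, although its strain label also reads C57BL/6. Each group was 1 library, so no test between conditions was possible. The Wilson 95% intervals below cover counting error over regions and not differences between cultures.

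H3K4me3, trimethylation of lysine 4 of histone H3, marks the start of active genes, usually as a narrow band around the transcription start site (TSS). At some genes the mark spreads far into the gene body, and such broad domains are known to lie at genes that define a cell type and at highly transcribed genes. H3K27ac marks active promoters and enhancers. Prrx1 is a homeodomain protein of limb and craniofacial mesenchyme, and homeodomains of this class bind DNA words with the core TAAT, often as the palindrome TAATTA.

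The sequences that stand for the results below are shown here. First, 14 Prrx1 sites inside common domains had a summit of all 3 cell types, counted where summits of the other types lay within 500 bp of a MEF summit. They fell in 13 domains. 7 of the 14 had TAATTA within 100 bp of the MEF summit, 1 of them (at Arf4) farther out than the 121 bases used for printing, and 10 lay within 1000 bp of a protein-coding TSS. Shown are 121 bases of mm9 (plus strand) centred on the MEF summit, with TAATTA in capitals, for 5 sites that hold the word and for 2 high-ranking sites that do not. The sites are at chr5:93521746-93521866 (Sept11), chr11:60351011-60351131 (Alkbh5), chr1:165245012-165245132 (Prrx1), chr1:164146974-164147094 (Dnm3os), chr3:60304132-60304252 (Mbnl1), chr9:44689476-44689596 (Mll1) and chr5:138051970-138052090 (Pcolce).
Sept11: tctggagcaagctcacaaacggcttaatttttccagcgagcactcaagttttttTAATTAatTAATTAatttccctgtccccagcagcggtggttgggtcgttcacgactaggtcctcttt
Alkbh5: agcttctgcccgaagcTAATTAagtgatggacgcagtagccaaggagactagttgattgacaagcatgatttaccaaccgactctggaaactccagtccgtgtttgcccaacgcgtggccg
Prrx1: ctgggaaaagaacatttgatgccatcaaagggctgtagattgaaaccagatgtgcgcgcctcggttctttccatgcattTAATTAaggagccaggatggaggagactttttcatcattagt
Dnm3os: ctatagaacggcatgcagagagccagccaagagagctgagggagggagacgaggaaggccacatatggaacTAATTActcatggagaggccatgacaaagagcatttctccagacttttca
Mbnl1: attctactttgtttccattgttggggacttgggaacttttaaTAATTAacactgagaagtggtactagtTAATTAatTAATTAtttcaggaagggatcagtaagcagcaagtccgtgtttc
Mll1: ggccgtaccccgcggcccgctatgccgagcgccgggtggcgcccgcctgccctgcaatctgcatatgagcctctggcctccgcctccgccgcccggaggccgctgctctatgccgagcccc
Pcolce: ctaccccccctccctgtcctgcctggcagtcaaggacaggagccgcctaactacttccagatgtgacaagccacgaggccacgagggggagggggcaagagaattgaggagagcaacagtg
The Sept11, Alkbh5, Mll1 and Pcolce sites belong to the 8 domains with the best worst rank among the 3 Prrx1 lists. The Prrx1, Dnm3os and Mbnl1 sites were added after their values were seen, because they lie at the factor's own gene, at a microRNA host and at a site with 3 copies of the word.

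Second, 23 annotated microRNA hairpins began inside 21 of the domains. 12 of the hairpins were matched to RefSeq, which gave 21 mature sequences with 21 different seeds. Those shown are mature strands of the best known ones, in capitals the seed (bases 2 to 8), to identify the small RNAs whose hairpins lie under this mark.
mmu-miR-21a-5p: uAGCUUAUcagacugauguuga
mmu-miR-22-3p: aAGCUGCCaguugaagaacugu
mmu-let-7i-5p: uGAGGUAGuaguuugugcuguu
mmu-miR-199a-5p: cCCAGUGUucagacuaccuguuc
mmu-miR-193a-3p: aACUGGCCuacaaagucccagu
mmu-miR-99b-5p: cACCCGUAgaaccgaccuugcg
mmu-miR-125a-5p: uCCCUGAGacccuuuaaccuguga
mmu-miR-15b-5p: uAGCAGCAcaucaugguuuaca

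Last of these, 200 bases around the outermost TSS inside the domain were read for the study's 9 genes, with CpG dinucleotides in capitals, to show how much the promoters under these domains differ in base composition. The window at chr1:165243792-165243991 (minus strand) held 0 CpG at Prrx1, and that at chr2:167514265-167514464 (plus strand) held 35 at Cebpb, the lowest and the highest of the 9.
Prrx1: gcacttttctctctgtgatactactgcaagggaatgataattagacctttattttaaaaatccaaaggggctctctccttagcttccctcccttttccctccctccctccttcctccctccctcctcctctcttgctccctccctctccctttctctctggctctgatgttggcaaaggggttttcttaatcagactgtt
Cebpb: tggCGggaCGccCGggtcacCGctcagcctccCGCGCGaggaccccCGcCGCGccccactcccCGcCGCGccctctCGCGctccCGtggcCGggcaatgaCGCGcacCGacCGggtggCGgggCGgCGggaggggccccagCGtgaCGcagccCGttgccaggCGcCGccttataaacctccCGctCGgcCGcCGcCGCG
Over the whole domain the values were 25.4 CpG per kb at Prrx1 and 65.5 at Cebpb. A broad domain thus lay over a TSS without any CpG in this window and over a CpG-rich one.

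Most of the domains lay at protein-coding genes. Of the 655, 625 (95.4%, 95% CI 93.5 to 96.8) held a protein-coding TSS of GENCODE vM1. The share was 92.8% (89.5 to 95.1) of the other 332 MEF WT broad regions and 66.1% (65.3 to 66.8) of the 15102 MEF WT regions of at most 4000 bp. There were 504 domains with the TSS of 1 gene, 115 with 2 genes and 6 with 3 genes, and 114 domains had genes on both strands. In all, 747 genes had a TSS in a common domain, which is 3.34% of 22372 annotated protein-coding genes and 6.36% of those with a TSS in any MEF WT region.

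The labelled cell type was checked against its markers. 5 of 10 fibroblast markers had a TSS in a common domain: Col1a1, Pdgfra, Twist2, Prrx1 and Vim. None of 10 epithelial, 6 endothelial, 6 haematopoietic and 5 neural crest or glial markers did. Epcam, Pecam1, Ptprc and Sox10 had no H3K4me3 region at a TSS in any WT list, while Kdr was broad in the wound list alone. Of the fibroblast markers, Lum had no region in any WT list, Thy1 none in the CAF WT list and Dcn none in the wound WT list. The lists were of unequal strength, and its part in the widths was not tested. The median −log10 p of H3K4me3 regions, as the authors' caller gave it, was 28.6 in the WT list of MEF, 23.3 in MEF SG and 9.93 in KI. CAF had 7.51 (WT) and 8.72 (SG), and wound had 16.6 (WT) and 11.4 (SG). Over the common domains the order was another one, with medians of 37.5 in the WT list of MEF, 29.2 in MEF SG, 12.0 in KI, 45.7 (WT) and 47.3 (SG) for CAF, and 20.8 for wound WT, with wound SG somewhat lower.

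Gene groups differed in how many members were common domains. Against 3.34% of all protein-coding genes, the share was 50.0% of contractile and cytoskeletal genes (16 of 32), 47.4% of cell cycle genes (9 of 19), 42.9% of Tead, Yap and their targets (6 of 14), 35.3% of Kruppel-like factors (6 of 17) and 33.3% of AP-1 genes (4 of 12). Growth factors, receptors and signalling genes stood at 16 of 50. The share was 29.6% of TGF-beta genes (8 of 27), 27.3% of mesenchymal factors (15 of 55) and 23.3% of matrix genes (10 of 43). It was lower for Hox cofactors and regional factors (5 of 28), Hox genes (6 of 39) and C/EBP genes (Cebpb alone of 5 annotated). Of the 4 nuclear factor I genes, Nfia, Nfib and Nfix were common. Ribosomal protein genes, added as a group of highly transcribed genes with no link to fibroblast identity, stood at 20.2% (17 of 84). The lists were chosen for fibroblasts with results of these data known, and the study had picked its 9 genes on these samples, so that 9 of 9 of them are common is no independent evidence.

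The widest of the common domains lay at genes of varied roles. Ranked by the smallest of their 3 WT widths, the first 10 were at Tnrc18, Setd1b (a methyltransferase of histone H3 lysine 4), Brd2 (a reader of acetylated histones), Irs1 (a docking protein of insulin and IGF1 receptors), Nfe2l1, Zfp503, Mn1, Arhgef2, Tpm1 (tropomyosin) and Tshz1 with Zadh2. The Tnrc18 domain (chr5:143573782-143586119) spanned 12338 bp in MEF WT, 16362 bp in CAF WT and 13831 bp in wound WT. It spanned 4879 bp in KI and 10673, 14980 and 12459 bp in the SG lists of MEF, CAF and wound. The domain was narrower than its WT in each of the 4 lists, though over 4000 bp in all. At Tpm1 (chr9:66888381-66897902) the widths were 9522, 8207 and 8850 bp in MEF WT, KI and SG, 11869 and 11110 bp in CAF (WT, then SG), and 9196 and 9610 bp in wound WT and SG. The lowest of these 7 values was in KI and the highest in CAF WT. Mn1 did not keep its width: 9396 bp in MEF WT stood against 1056 bp in KI and 7780 bp in SG, 9468 bp in CAF WT against 2775 bp in SG, and 17197 bp in wound WT against 17801 bp in SG.

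Members just inside the limit were at Arpc2 (4002 bp in MEF WT), Pmepa1 (4004 bp) and Zfp703 (4007 bp). Just outside were regions at Klhl21 (4000 bp), Cd3eap with Ppp1r13l (3999 bp) and Eif4a1 (3992 bp), each over 4000 bp in the other 2 types. In all, 320 MEF WT regions of at most 4000 bp met the rest of the rule. The wound list decided membership more often than the CAF list: 919 of the 987 MEF WT broad regions were broad in CAF WT and 670 in wound WT, with 264 lost by the wound list alone and 15 by CAF alone.

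Over the 7 H3K4me3 lists, the domains were widest in CAF and narrowest in KI. The median width was 4955 bp in MEF WT (4002 to 16496 bp), 6546 bp in CAF WT and 4961 bp in wound WT. In the lists that the rule did not use, it was 3542 bp in KI (588 to 11047 bp), 4554 bp in MEF SG (981 to 21387 bp), 6157 bp in CAF SG (2775 to 27392 bp) and 5722 bp in wound SG (1931 to 32735 bp). The domains nevertheless sat near the top of each list. Their median width exceeded that of 96.0% of all KI regions, 97.2% in MEF SG, 97.9% in CAF SG and 97.6% in wound SG. In KI, 214 domains were covered by more than 1 region and 4 by none, against 64 and 0 in MEF SG.

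**Figure D1:**
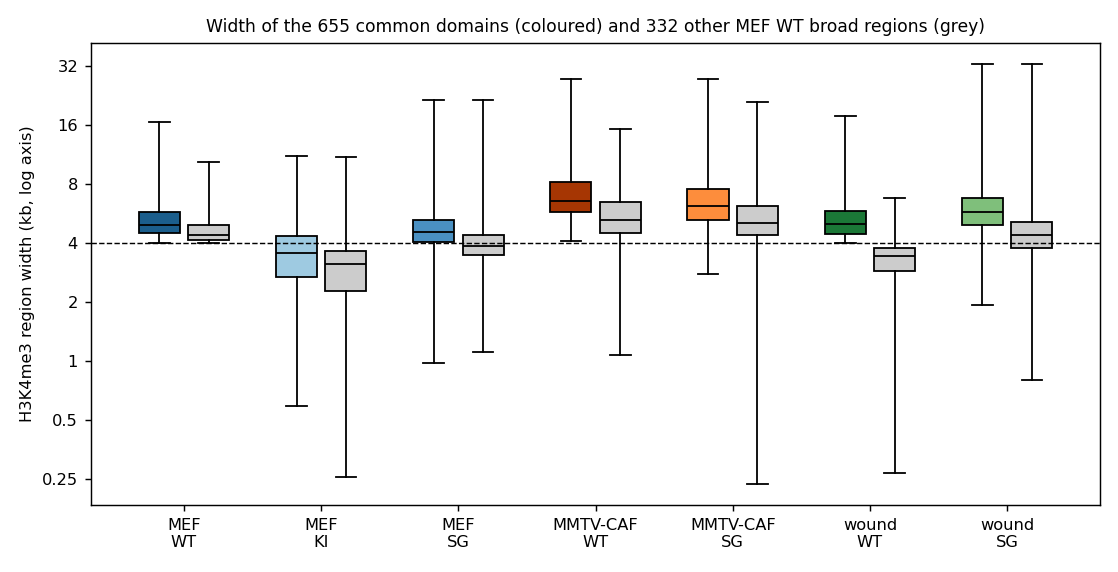
Width in kb (log axis) of the widest H3K4me3 region over each domain in 7 lists, for 655 common domains (coloured boxes) and 332 other MEF WT broad regions (grey boxes). Boxes span the quartiles with the median as a line, whiskers reach the lowest and highest value, regions without an overlap are left out, and the dashed line marks 4 kb. The KI median (3.54 kb for the common domains) is the only coloured median below the line.

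The rank order of widths was most alike between the WT and SG lists of a type and least alike between KI and the CAF and wound lists, as a description over domains that share their libraries. Spearman's correlation over the 655 domains was 0.75 between MEF WT and MEF SG, 0.68 between CAF WT and SG and 0.62 between wound WT and SG. Between WT types it was 0.48 (MEF with CAF), 0.60 (MEF with wound) and 0.47 (CAF with wound). With KI, it was 0.38 for MEF WT, 0.43 for MEF SG, and 0.14 to 0.24 for the CAF and wound lists (n = 651).

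The 4 KI and SG lists, in which Prrx1 had been targeted or mutated, were asked for domains still over 4000 bp. In CAF SG, 647 of 655 did (98.8%, 97.6 to 99.4), beside 70.6% of all WT broad regions of that type. In wound SG, 619 did (94.5%, 92.5 to 96.0), beside 89.6%. In MEF SG, 497 did (75.9%, 72.5 to 79.0), beside 64.5%, and in KI, 232 did (35.4%, 31.9 to 39.2), beside 28.2%. In each list the share was above that of all WT broad regions, a group that itself contains the common domains. For broad regions of the same type that overlapped no common domain, the shares were 62.8%, 78.5%, 42.2% and 13.9%. The WT widths that chose the domains are the starting point of these shares. With the widest 5% of each list in place of 4000 bp the shares were 88.2%, 81.1%, 77.6% and 56.3%, so that the distance between KI and the other lists was smaller.

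The difference between common domains and other MEF WT broad regions was also seen at like MEF WT width. At 4 to 5 kb, 68 of 340 common domains were over 4000 bp in KI against 27 of 254 others (10.6%), and 58.5% against 32.7% in MEF SG. At 5 to 6 kb, the shares were 48.4% of 182 against 23.5% of 51 in KI and 95.1% against 72.5% in MEF SG. The intervals did not overlap in the 5 to 6 kb class in either list. The other regions are those that missed the limit in CAF WT, wound WT or both, so by the rule they were broad in fewer WT lists. Comparing at like MEF WT width does not remove this, and its part in the difference was not tested. Above 8 kb, 39 common domains gave 59.0% in KI and 89.7% in MEF SG, with 2 other regions for comparison.

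**Figure D2:**
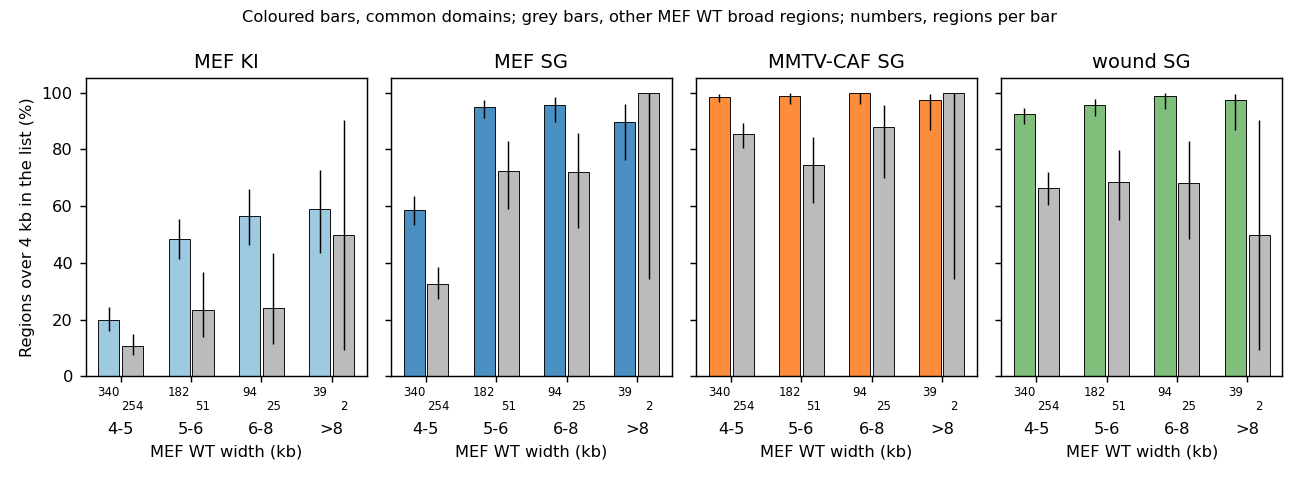
Share (%) of regions over 4 kb in each KI or SG list by MEF WT width class (kb), for common domains (coloured) and other MEF WT broad regions (grey). Error bars are Wilson 95% intervals and the numbers below the bars give the regions in each; coloured bars stand above grey ones in every class up to 8 kb, as with 48.4% against 23.5% in KI at 5 to 6 kb, and the widest grey class rests on 2 regions. Of the 332 grey regions, 316 were at most 4 kb and 1 absent in wound WT. In CAF WT 51 were at most 4 kb, 17 absent and 264 over 4 kb. All common domains were over 4 kb in both by the rule, so the gaps in wound SG and CAF SG start from unlike WT widths. How much of these gaps comes from the rule was not tested.

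Each domain was then followed over the 4 lists together. All 4 kept 213 domains over 4000 bp (32.5%), 3 lists kept 280, 2 kept 141, 1 kept 21, and every domain was kept by at least 1. The commonest pattern was loss in KI alone, with 264 domains (40.3%). Of all 987 MEF WT broad regions, 28.2% were over 4000 bp in KI, so loss there was not particular to the common domains. The joint patterns were not counted over other broad regions. A further 121 domains were over 4000 bp in CAF SG and wound SG but in neither KI nor MEF SG. Without the KI list, whose regions had the lowest −log10 p among the MEF lists, 477 domains were kept in all SG lists. The same rule run on the 3 SG lists gave 619 domains, of which 478 (77.2%) overlapped a common domain of the WT lists, and 477 of the 655 (72.8%) overlapped one of them.

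The size of the difference was read from the width ratio of each KI or SG list to its WT list. The median ratio was 0.719 in KI (all paired MEF WT regions 0.754), 0.927 in MEF SG (0.929), 0.937 in CAF SG (1.02) and 1.10 in wound SG (1.16). Divided by the median ratio of regions up to 4000 bp, the medians became 0.949, 0.996, 0.887 and 0.941, so that the wound domains were wider as listed and narrower after this scaling. At least 1.5 times narrower were 279 of 651 domains in KI (42.9%), beside 35.7% of all paired regions. The count was 49 in MEF SG (7.48%), beside 9.45%, 47 in CAF SG (7.18%), beside 9.84%, and 16 in wound SG (2.44%), beside 3.28%. At least 1.5 times wider were 0 domains in KI, beside 1.73%, and 2 in MEF SG (0.305%), beside 2.52%. CAF SG had 13 such domains (1.98%), beside 20.3%, and wound SG had 58 (8.85%), beside 21.4%. The domains were thus close to the background in the share narrowed in the SG lists and below it in the share widened, with WT widths that had already been required to be large. In all 4 lists, 94 domains were narrower than their WT as listed and 0 wider, of 651 with a region in every list. Ratios below 1 made up 96.3% of domains in KI and 20.2% in wound SG, beside 92.1% and 23.1% of all paired regions. Few domains could thus be wider in all 4 lists, and these joint counts were not made over all paired regions.

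The 5 domains that were narrower by the widest margin in all 4 lists included 2 genes of the extracellular matrix. They lay at F3 (tissue factor, the trigger of coagulation), Sparc (a collagen-binding matrix protein), Grlf1, Col1a1 (a chain of type I collagen) and Pmepa1 (an inhibitor of TGF-beta signalling). At Sparc (chr11:55226996-55233800) the width was 6805, 3355 and 3527 bp in MEF WT, KI and SG, 9507 and 7067 bp in CAF (WT, then SG), and 9265 and 5112 bp in wound WT and SG. At F3 (chr3:121425489-121430650) it was 5162, 3831 and 2537 bp in MEF, 10319 and 6889 bp in CAF, and 5105 and 3775 bp in wound, in the same order. At Pmepa1 (chr2:173098808-173102811) it was 4004, 2950 and 1619 bp, then 17147 and 5113 bp, then 7107 and 5398 bp. That WT had the widest region of its type was fixed by this choice. All 3 were under 4000 bp in KI and MEF SG, and F3 also in wound SG.

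Other domains had no KI or SG list with a much narrower region than WT, being those with the highest lowest ratio. They include a domain 53 bp from a TSS of Rnd3 and those at Cdkn2a (a cell cycle inhibitor), Ptgs2 (a prostaglandin synthase) and Ptch1 (the Hedgehog receptor). The Cdkn2a domain (chr4:88938064-88943173) was 5110, 5393 and 5267 bp wide in MEF WT, KI and SG, 9711 and 10812 bp in CAF (WT, then SG), and 5035 and 5027 bp in wound WT and SG. The Ptch1 domain (chr13:63663810-63669864) was 6055, 5962 and 6021 bp, then 6457 and 7066 bp, then 6036 and 6203 bp. In these 2 domains the widths, KI included, varied little within a cell type, as they were chosen for ratios that were not low. A separate MEF WT broad region at another TSS of Cdkn2a, which is not a common domain, spanned 4349, 907 and 3083 bp in MEF WT, KI and SG and had no region in CAF. Ptgs2 was not as even, with 4618 bp in wound WT and 8971 bp in wound SG.

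By gene group, matrix domains had lower ratios than all common domains in the SG lists and a ratio close to them in KI. The 9 domains with 10 matrix genes had median ratios of 0.693 in KI, 0.780 in MEF SG, 0.723 in CAF SG and 0.972 in wound SG, beside 0.719, 0.927, 0.937 and 1.10 over all common domains. Below 1 were 9, 9, 9 and 5 of them, beside 96.3%, 84.9%, 70.4% and 20.2% of all common domains as listed, so 9 of 9 in KI and MEF SG is near that background. Thbs1, Sparc, Col5a1 and Serpinh1 (the collagen chaperone HSP47) were the widest of this group. The Col5a1 domain was 5199 bp wide in MEF WT and 4321 and 4264 bp in KI and SG, and it was 12671 and 7330 bp in CAF (WT, then SG) and 7163 and 6961 bp in wound WT and SG.

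The contractile and cytoskeletal group of 16 domains, led by Tpm1, Zyx, Myh9 and Flna, had medians of 0.629, 0.907, 0.835 and 1.09. Of its domains, 14 of 16 were narrower than WT in CAF SG, beside 461 of 655 common domains (70.4%). Myh9, a heavy chain of non-muscle myosin, was 7088, 3461 and 4322 bp wide in MEF WT, KI and SG, 12901 and 8428 bp in CAF, and 8351 and 9131 bp in wound. The 16 ribosomal domains, among them those of Rpl13a, Rps18 and Rpl3, had 0.848, 0.924, 0.851 and 1.05, with 16 of 16 narrower in CAF SG (70.4% of all common domains were), so a low ratio there was not particular to the matrix or contractile genes.

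Cell cycle domains had medians of 0.830, 1.01, 1.09 and 1.07 over 9 domains, above those of all common domains in KI, MEF SG and CAF SG and below in wound SG, and all 9 were over 4000 bp in MEF SG. At Myc the widths were 6300, 5542 and 6359 bp in MEF WT, KI and SG, 8542 and 9303 bp in CAF, and 6073 and 6401 bp in wound. For 15 mesenchymal factors the medians were 0.802, 0.960, 1.03 and 1.13, and 10 of 15 were broad in KI, beside 232 of 655. Runx1 (a factor of mesenchymal and blood lineages) was 7138, 5723 and 7066 bp wide in MEF, 6673 and 8617 bp in CAF, and 5804 and 6557 bp in wound. The nuclear receptor gene Nr2f2 was 8281, 6440 and 8379 bp wide in MEF, 23877 and 23575 bp in CAF, and 7218 and 7746 bp in wound.

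TGF-beta domains (8) had medians of 0.828, 0.932, 0.969 and 1.14. Smad7, an inhibitor of the pathway, spanned 7891, 7969 and 7400 bp in MEF WT, KI and SG, 20400 and 18153 bp in CAF, and 13998 and 9046 bp in wound. Tead, Yap and target domains (6) had 0.808, 0.974, 0.899 and 1.13, and growth factor, receptor and signalling domains (16) had 0.707, 0.955, 0.990 and 1.14. Cyr61, a target of Yap, spanned 8218 and 8005 bp in MEF WT and SG and 4364 bp in KI. The medians for Kruppel-like factors (6 domains) were 0.680, 0.961, 0.825 and 1.14. For AP-1 (4) the median was 0.506 in KI and 0.989 in CAF SG, and for nuclear factor I (3) it was 0.896 in MEF SG and 1.01 in CAF SG.

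Homeobox domains had the lowest median ratios of the groups in KI, and Hox domains the highest in wound SG. The 6 Hox genes lay in 4 domains, with medians of 0.461 in KI (3 paired), 0.975 in MEF SG, 1.03 in CAF SG and 3.59 in wound SG. The regions at Hoxc6 in both CAF lists and in wound SG span a neighbouring common domain as well, which in wound WT was a separate region of 4436 bp, so that joining of regions enters the wound SG ratio. At Hoxc6 (chr15:102825563-102834041) no region was listed in KI, against 8479 bp in MEF WT and 8174 bp in SG, and 27443 and 27392 bp were listed in CAF (WT, then SG) and 8697 and 23081 bp in wound WT and SG. For the 5 Hox cofactors and regional factors the medians were 0.370 in KI and 0.965 and 0.992 in the MEF and CAF SG lists. Meis1 (chr11:18907412-18921739) was 14328, 3542 and 9278 bp wide in MEF WT, KI and SG, and Emx2 (chr19:59530744-59543842) was 13099, 3977 and 12642 bp wide. The KI value stood apart from both WT and SG at these genes.

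The study's factors and Col1a1, taken as a group, showed a step between KI and SG too. Over the 9 domains the median ratio was 0.609 in KI and 0.974, 0.894 and 1.10 in the SG lists, and 2, 7, 9 and 9 were over 4000 bp. The KI median equals the ratio at Col1a1, which is not a factor and had a low ratio in MEF SG as well (0.729). Klf4 spanned 5703, 1060 and 5751 bp in MEF WT, KI and SG, 5571 and 5635 bp in CAF, and 5279 and 6766 bp in wound. Nfix spanned 6494, 1872 and 5205 bp, then 20121 and 17987 bp, then 9015 and 6113 bp. Fosl2 spanned 8887, 6079 and 9046 bp, then 15949 and 13765 bp, then 11265 and 13235 bp. At Prrx1 itself, 4558 bp were listed in KI and 7341, 15484 and 6092 bp in the SG lists of MEF, CAF and wound, so the mark at the targeted gene does not check the labels. Outside KI, Klf4, Nfix and Fosl2 remained over 5000 bp in every list.

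**Figure D3:**
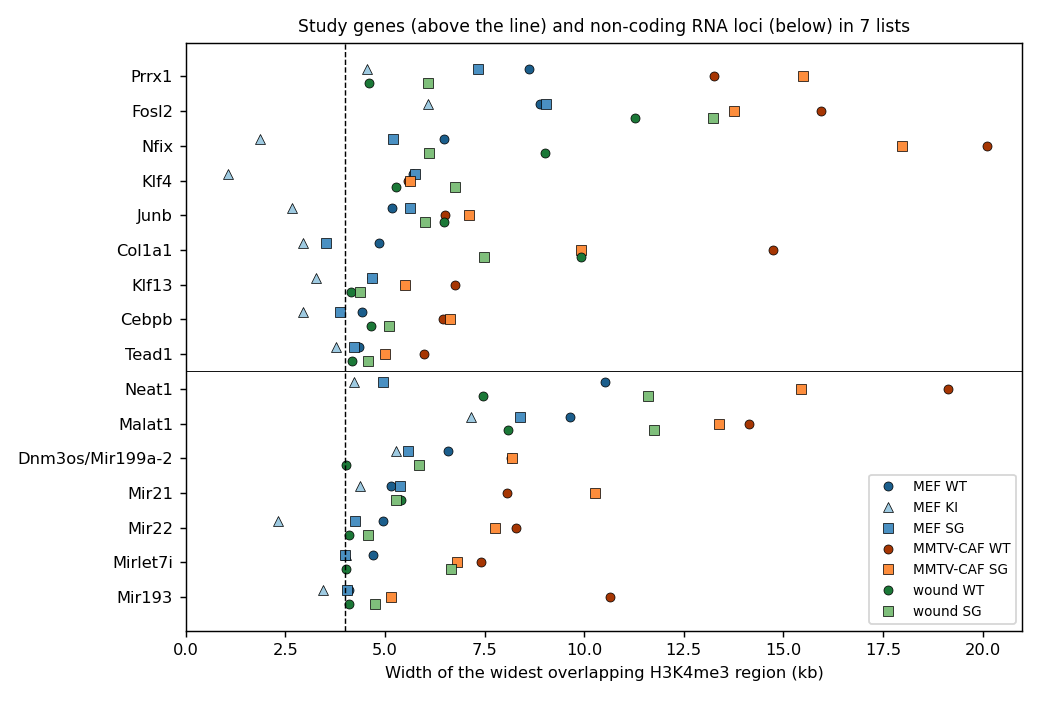
Width (kb) of the widest H3K4me3 region over the domains of the study's 9 genes (above the line) and of 7 non-coding RNA loci (below) in 7 lists, 1 point per library; the dashed line marks 4 kb. KI triangles lie left of MEF WT and SG points for Nfix, Klf4 and Junb, and CAF points lie farthest right at most loci.

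A group of 30 domains held no protein-coding TSS, and several were hosts of long non-coding RNAs or microRNAs. This group was looked at after its values were seen. 13 of the 30 held the TSS of another gene type, among them Malat1 and Neat1 (abundant nuclear RNAs), Dnm3os (the host of Mir199a-2), Mir21, Mir22, Mirlet7i and Mir193, and 4 lay within 1000 bp of a protein-coding TSS. The Malat1 domain (chr19:5795417-5805050) was 9634, 7153 and 8394 bp wide in MEF WT, KI and SG, 14126 and 13386 bp in CAF, and 8082 and 11763 bp in wound. The Neat1 domain (chr19:5839496-5850023) was 10528, 4222 and 4949 bp, then 19143 and 15443 bp, then 7463 and 11609 bp. Malat1 thus differed less from WT in MEF than its neighbour Neat1, and both were over 4000 bp throughout.

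The Dnm3os domain (chr1:164146373-164152947) was 6575, 5267 and 5573 bp wide in MEF WT, KI and SG, 8161 and 8183 bp in CAF, and 4024 and 5853 bp in wound. The Mir21 domain (chr11:86395248-86400390) was 5143, 4362 and 5370 bp, then 8057 and 10281 bp, then 5393 and 5271 bp. Both were broad in all 7 lists. The domain with Mir99b and Mir125a (chr17:17962645-17969356) holds the TSS of Ncrna00085 and so is not one of the 30. It was broad in all 7 lists too, at 6712, 4741 and 6055 bp in MEF, 16944 and 6543 bp in CAF, and 6817 and 5828 bp in wound.

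Around the TSS, the domains reached mostly into the gene. In the 504 domains with 1 gene, the MEF WT region extended a median of 1174 bp upstream of the outermost TSS and 3780 bp downstream, and 470 (93.3%) reached farther downstream. MEF WT regions of over 2000 to 4000 bp had 715 bp upstream and 1902 bp downstream, and 93.8% reached farther downstream, so the lean was the same in narrower regions. The common domains covered a median of 15.1% of the gene against 6.07%, and 34 genes were covered whole. In KI the extents were 761 bp and 2862 bp (395 regions that held the TSS), and in MEF SG 1060 bp and 3361 bp (497). The narrower regions were shorter on both sides.

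**Figure D4:**
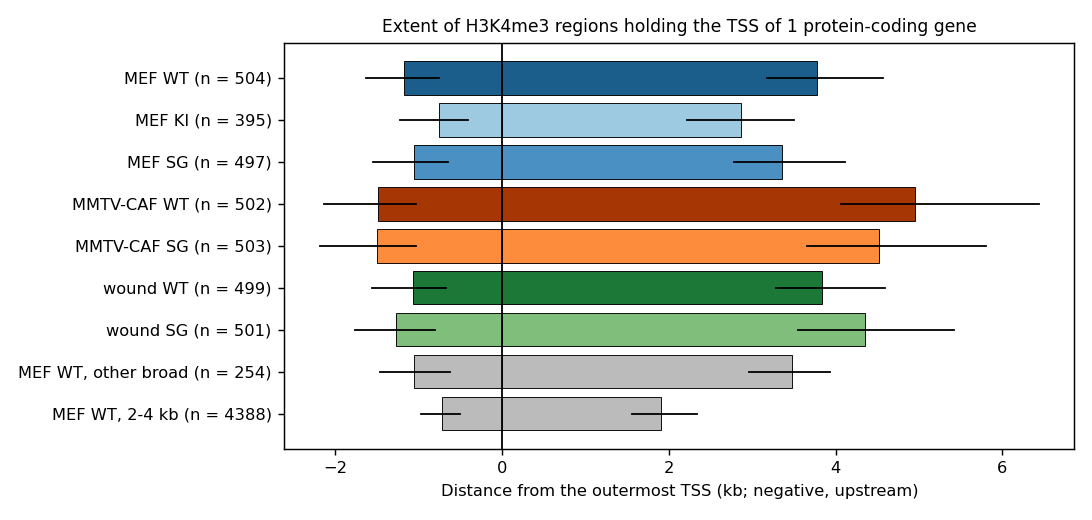
Median distance (kb) that the H3K4me3 region reached upstream (negative) and downstream of the outermost TSS in domains with 1 protein-coding gene, for the 7 lists (coloured) and for 2 other groups of MEF WT regions (grey). Black lines span the quartiles; every bar is longer downstream, with 3.78 kb in MEF WT and 2.86 kb in KI.

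In base composition the domains resembled narrower regions. The median was 52.3% GC and 37.2 CpG per kb in the common domains, 49.8% and 35.5 in the other MEF WT broad regions, and 52.7% and 42.1 in regions of over 2000 to 4000 bp. Flanks of the common domains had 44.0% and 10.5. The CpG-rich part (200-bp windows with at least 50% GC and an observed to expected CpG ratio of at least 0.6) had a median of 1400 bp in the common domains and 800 bp in the regions of over 2000 to 4000 bp, and covered 26.9% and 31.2% of the region. Width and CpG per kb had a Spearman's correlation of -0.22 over the 655 domains. The H3K4me3 domain was thus wider than the CpG-rich part beneath it.

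Nearly all the domains carried H3K27ac. A summit lay inside 650 domains (99.2%) in MEF WT, 650 in CAF WT and 653 in wound WT (99.7%), and inside 625 (95.4%) in KI and 648 to 650 in the SG lists. The shares for MEF WT regions up to 4000 bp ran from 55.8% in KI to 80.2% in MEF SG. The other MEF WT broad regions had high shares as well, from 92.2% in KI to 98.5% in MEF WT and MEF SG. Per kb, the domains held 0.447 summits in MEF WT against 0.647 in the regions up to 4000 bp, so the larger share went with more length and not with denser summits. KI was the exception, with 0.492 against 0.472.

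Prrx1 summits of the 3 WT lists were then placed on the domains. The MEF list had 24 summits inside 22 domains (3.36%, 2.23 to 5.03), beside 1.28% of all MEF WT H3K4me3 regions. The CAF list had 282 summits inside 225 domains (34.4%, 30.8 to 38.1), beside 11.4%, and the wound list had 254 summits inside 200 domains (30.5%, 27.1 to 34.2), beside 9.39%. Per Mb, which takes the width out, the values were 6.81 in MEF against 7.08 in regions up to 4000 bp, 80.0 in CAF against 64.0, and 72.1 in wound against 52.7. The other MEF WT broad regions had 6.39, 54.3 and 40.9. In MEF the density was thus close to that of other MEF WT H3K4me3 regions. In CAF and wound it was higher than in those MEF WT regions, which need not be listed in these types. Among CAF WT's own broad regions it was 72.4 per Mb in those over a common domain against 60.3 in the rest. Among wound WT's own it was 70.3 against 51.4. Counting summits with −log10 p of 10 or more, the shares were 1.07%, 7.79% and 3.51%, so most of these summits were under that strength. Some listed summits were weaker than the p cutoff that the methods give. The 3 Prrx1 lists held 3048, 8000 and 5698 summits, and 0.787%, 3.52% and 4.46% of them lay in the domains. Whether each list pools the duplicate ChIPs that the study describes is not stated, and no Prrx1 list of KI or SG cells was analysed here.

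Wider domains held a Prrx1 summit more often in CAF and wound. From 4 to 5 kb to over 8 kb, the share with a summit was 30.6%, 31.9%, 43.6% and 56.4% in CAF, 26.2%, 25.3%, 43.6% and 61.5% in wound, and 2.06%, 3.85%, 5.32% and 7.69% in MEF, where the last class had 39 domains. Per Mb, which takes the width out, these classes had 82.1, 65.5, 80.1 and 110 summits in CAF and 68.3, 59.5, 86.4 and 97.0 in wound, so the density was not ordered by width below 8 kb in these types. In MEF it was 5.25, 7.06, 7.85 and 10.8 per Mb, higher in each wider class, over 24 summits in all. No summit of any type lay in 343 domains (52.4%), 100 had summits of CAF and wound and not MEF, and 16 had all 3. Of the domains without a protein-coding TSS, a summit lay in 3 of 30 in MEF (10.0%, 3.46 to 25.6, against 3.04% of the rest). The shares were also higher in CAF (15 of 30, 50.0%, 33.2 to 66.8, against 33.6%) and wound (13 of 30, 43.3%, 27.4 to 60.8, against 29.9%), where the intervals take in the share of the rest.

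**Figure D5:**
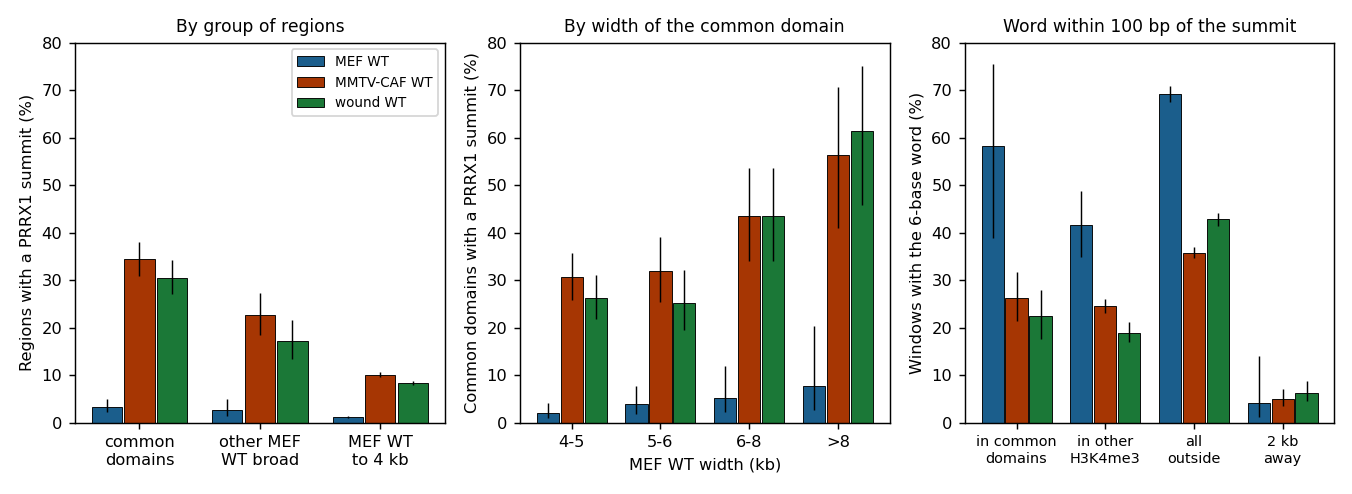
Left, share (%) of MEF WT H3K4me3 regions with a Prrx1 summit, by group of regions; middle, the same for common domains by MEF WT width (kb); right, share (%) of windows within 100 bp of Prrx1 summits that hold the 6-base homeodomain word. Bars are the 3 WT types and error bars are Wilson 95% intervals; in the right panel every summit group stands above the positions 2 kb away (4.17% to 6.30%).

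The 5 domains with the most Prrx1 summits lay at Malat1, 2610203C20Rik, Prrx1 itself, Hoxc6 and Dnm3os with Mir199a-2. Malat1 held 0 summits of MEF, 3 of CAF and 4 of wound. The 2610203C20Rik domain (chr9:41387495-41398179) held 1, 3 and 2, and was 10685, 4762 and 4887 bp wide in MEF WT, KI and SG. The Prrx1 domain (chr1:165236674-165245301) held 2, 3 and 1, Hoxc6 held 0, 4 and 2, and Dnm3os held 1, 2 and 3. At the gene of the factor, a site common to the 3 types lay 1231 bp from a Prrx1 TSS with TAATTA, as printed above, and had −log10 p of 5.77, 20.0 and 11.5.

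Other common sites had a wide range of strength. The site 157 bp from a TSS of Mll1, a methyltransferase of histone H3 lysine 4, had −log10 p of 40.0 in MEF, 19.4 in CAF and 209 in wound, where it ranked 1. The bases within 100 bp of the summit held neither TAATTA nor TAAT. The site 100 bp from the TSS of Pcolce, an enhancer of procollagen processing, had 12.8, 43.2 and 29.4 and also lacked both words within 100 bp, while a second common site in that domain held TAAT. Sept11 had 12.6, 13.7 and 11.5 with 2 copies of TAATTA in the printed bases, and Mbnl1, a splicing regulator, had 11.9, 5.93 and 8.31 with 3 copies. Further sites lay 34 bp from a TSS of Fgf7 and 1462 bp from one of Pcdh18. The printed sites at Mll1 and Pcolce thus lacked the word.

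Over all summits in the domains, TAATTA (read on either strand, since it is its own reverse complement) lay within 100 bp of 58.3% of 24 summits in MEF (38.8 to 75.5), 26.2% of 282 in CAF (21.5 to 31.7) and 22.4% of 254 in wound (17.7 to 28.0). At positions 2 kb away it was 4.17%, 4.96% and 6.30%, and in windows of the same length tiled over the domains it was 3.99%. For summits in H3K4me3 regions outside the common domains it was 41.6%, 24.5% and 19.0%, and for all summits outside them 69.2%, 35.8% and 42.8%. The word was thus as frequent as at other H3K4me3 regions within the intervals, and in CAF and wound less frequent than over the remaining list. Median −log10 p inside the domains was 7.21, 6.85 and 5.66, beside 8.41, 6.94 and 6.32 over each list.

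Within the domain, the outer 20% on each side held 12 of 24 Prrx1 summits of MEF (50.0%), 34.4% of those of CAF and 35.0% of those of wound, against 40.5%, 39.6% and 38.7% of H3K27ac summits. The median distance from a Prrx1 summit to a protein-coding TSS was 830, 915 and 806 bp. For CAF and wound the outer share was somewhat below that of H3K27ac, and for MEF it rests on 24 summits.

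Finally, the domains with a Prrx1 summit of the type were compared with those without. Over 4000 bp in CAF SG were 225 of 225 with a summit (100%, 98.3 to 100) and 98.1% of 430 without. In wound SG it was 97.0% of 200 and 93.4% of 455, in MEF SG 21 of 22 (95.5%, 78.2 to 99.2) and 75.2% of 633, and in KI 14 of 22 (63.6%, 43.0 to 80.3) and 34.4% of 633. Domains with a summit were wider to begin with, at a median WT width of 5798 against 4943 bp in MEF, 6942 against 6436 bp in CAF and 5224 against 4855 bp in wound. The median width ratio was 0.937 in both groups in CAF SG, 1.11 and 1.10 in wound SG, 0.946 and 0.927 in MEF SG and 0.778 and 0.719 in KI. The part of WT width in the higher shares was not tested.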

How the data were processed

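The deposited peak lists of 17 ChIP-seq libraries (1 per group, grouped by sample title) were used, and the 7 inputs were not. Per the methods, the authors used Trimmomatic for trimming, Bowtie for alignment (mm9), Picard for duplicate removal and, for peak calling over each input, MACS2, which ran with --broad and a cutoff of 0.1 for H3K4me3. The deposited H3K4me3 lists give regions with a score, a fold enrichment (ratio) over input, and −log10 p-values and −log10 q-values, and the deposited H3K27ac and Prrx1 lists give 1-bp summits with a −log10 p-value. Library totals were not used here, so the depth behind each list is unknown. A wider or more numerous list may come from depth or ChIP strength as well as from the cells, and these cannot be told apart.

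For each domain, the width in a list was that of the widest overlapping region. Genes, TSS and sequences came from GENCODE vM1 and NCBIM37 (the same build as mm9, with 0 intervals beyond a chromosome end), coordinates are 1-based, and mature microRNAs came from RefSeq (GRCm38.p6), matched by name. TAATTA and TAAT (or ATTA, its reverse complement; TAATTA contains both) were sought within 100 bp of summits. Named members were the 10 widest, the study's 9 genes, the 5 with most Prrx1 summits, the 5 with the lowest and the 5 with the highest width ratios over the 4 pairs, 3 on each side of the limit, up to 4 per gene list and 8 with common Prrx1 sites; others are said to be chosen after their values were seen. Some of these members are not reported here. The members and gene lists were chosen with earlier results of these data known. Code was tested on simulated lists. Intervals are Wilson 95%. Software: matplotlib 3.10.9, pysam 0.24.0, scipy 1.17.1, numpy 2.4.6 and pandas 2.3.3 under Python 3.11.15. Other widths, overlap rules, joined regions, equal numbers, scaled ratios and −log10 p minimums were tried.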

Additional observations from a re-analysis of the deposited data

Results flagged for a closer look

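The median width ratio of the common domains lay on opposite sides of 1 in MEF and wound-healing fibroblasts. It was 0.719 in KI and 0.927 in SG MEF, and 1.10 in wound-healing SG against its WT. With 1 library per group, the difference between the types was not tested. Of 651 domains with a region in every list, 296 were narrower in the MEF and MMTV-CAF lists and wider in wound-healing SG. All paired regions gave 1.16 in wound-healing SG, and after division by the median of regions up to 4000 bp the domains were at 0.941.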

How the results depend on the processing

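No paired analysis was possible because each group has 1 library and no result comes from a test. The number of domains was 1894 at over 3000 bp and 224 at over 5000 bp. It was 447 with the 949 widest regions of each WT list, 595 with mutual overlap of 50% and 822 with regions within 1000 bp joined. Shares in KI, MEF SG, CAF SG and wound SG were 46.7%, 82.2%, 98.8% and 96.8% at 3000 bp, 27.7%, 69.2%, 96.0% and 96.0% at 5000 bp, and 56.3%, 77.6%, 88.2% and 81.1% for the widest 5% of each list. Joining gave 44.0% in KI. In all lists, 477 domains were kept without KI, an alternative chosen after seeing the data, against 213. The median ratio in KI was 0.763 for summed widths. Scaled by regions up to 4000 bp, the ratios were 0.949 (KI), 0.996 (MEF SG), 0.887 (CAF SG) and 0.941 (wound SG), the last on the other side of 1; the scaling itself makes this change. The share with a Prrx1 summit was 30.5% in CAF and 23.7% in wound at −log10 p of at least 5, and 1.07% (MEF), 7.79% and 3.51% at 10. Inside CAF's own regions it was 39.5%, beside 26.6% of CAF WT broad regions that overlapped no common domain. Inside wound's own regions it was 30.1%, beside 19.1%. Summits per Mb were 68.7 and 53.9 at 5, and 1.99 (MEF), 15.0 and 7.10 at 10. No comparison group is given for the Prrx1 values at these minimums. H3K27ac summits per kb at 10 were 0.410 (MEF WT), 0.364 (KI), 0.356 (MEF SG), 0.418 and 0.440 (CAF WT and SG) and 0.471 and 0.368 (wound WT and SG). Of 56 alternatives, 20 stayed within the interval of the value or 1.5 times of the count, 35 moved beyond it and 1 changed direction; the cause was not tested unless stated.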
